A study of Mus musculus with 30 samples.

Results

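The 50 genes described here, of 22122 named on the array, carry out DNA replication and cell division. They were chosen by name as a standard list of cell cycle genes, with earlier results of these data known. Every probe set bearing one of their symbols was taken, whatever its values. Of the 50 genes, 49 were represented by 119 of the 45037 probe sets on the array, and Chaf1a was not analysed here because no probe set carried its symbol. A filter on low intensities left 106 of the 119 probe sets, at least 1 for each of the 49 genes, and left out 13.

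A cell about to copy its DNA loads the Mcm2 to Mcm7 helicase onto replication origins with the help of Cdc6 and Cdt1, makes nucleotides, and copies the template. Mitosis follows, in which cyclin B with its kinase condenses the chromosomes, the spindle attaches to kinetochores, and the anaphase-promoting complex with Cdc20 ends the division. In skin these transcripts come mainly from basal keratinocytes of the epidermis and from the matrix of growing hair follicles. The phorbol ester TPA is a classic inducer of keratinocyte division and epidermal thickening.

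The study asked how skin lacking D6, a receptor that scavenges inflammatory chemokines, differs from wild type (WT) skin in its response to TPA. Female WT and D6-deficient mice of a mixed 129–C57BL/6 strain, 8 to 12 weeks old, received 3 applications of 50 µM TPA, 24 h apart, on the back. Whole shaved back skin was taken 1, 2, 4 or 6 days later, and acetone-treated skin of each genotype, which the labels also call untreated, stands as day 0. This gives 10 groups, each of 3 Affymetrix arrays labelled as biological replicates, 30 in all, so that p-values measure the spread between these arrays.

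Intensities are given on the log2 scale throughout, and a change or difference is a difference of log2 intensities. Array medians lay between 5.64 and 5.80. On 1 of the 3 probe sets of the D6 gene, Ccbp2, the 15 D6-deficient arrays (3.30 to 3.86) lay below all 15 WT arrays (4.15 to 5.76), while its brightest probe set overlapped between the genotypes. Whole skin is a mixture, and a change in the number of dividing cells cannot be told apart from a change in RNA per cell. A gene is said to have risen or fallen where limma gave an adjusted p under 0.05. The stricter threshold adds a change of more than 3-fold. Where a gene had several probe sets, the brightest is quoted.

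The promoters of 6 members that stand for the main contrast of the time course are printed here, 3 licensing genes that stayed high at day 4 in D6-deficient skin and 3 mitotic genes that fell. Each run is the 250 bases before the RefSeq start of transcription in GRCm38.p6, read 5′ to 3′ on the strand of the gene. Capitals mark CCAAT, the box bound by NF-Y, TTTGAA, the core of the cell cycle genes homology region, and GCGGGAA and GCGCGAA, forms of the E2F site, on either strand. The licensing windows lie at chr11:98907901-98908150 (plus strand), chr8:75109259-75109508 (plus strand) and chr8:122567765-122568014 (plus strand). The mitotic windows lie at chr9:70421555-70421804 (minus strand), chr2:164769679-164769928 (plus strand) and chr13:100786487-100786736 (minus strand).
Cdc6: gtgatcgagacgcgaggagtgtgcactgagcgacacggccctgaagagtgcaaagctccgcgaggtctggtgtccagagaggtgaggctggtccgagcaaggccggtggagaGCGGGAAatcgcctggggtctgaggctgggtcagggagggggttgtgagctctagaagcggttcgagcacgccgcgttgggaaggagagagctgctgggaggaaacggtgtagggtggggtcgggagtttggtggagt
Mcm5: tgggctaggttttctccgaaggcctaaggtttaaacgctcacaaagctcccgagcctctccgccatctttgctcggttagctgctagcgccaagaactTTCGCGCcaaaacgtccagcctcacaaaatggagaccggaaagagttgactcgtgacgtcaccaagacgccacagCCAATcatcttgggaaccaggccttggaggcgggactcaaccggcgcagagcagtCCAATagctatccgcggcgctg
Cdt1: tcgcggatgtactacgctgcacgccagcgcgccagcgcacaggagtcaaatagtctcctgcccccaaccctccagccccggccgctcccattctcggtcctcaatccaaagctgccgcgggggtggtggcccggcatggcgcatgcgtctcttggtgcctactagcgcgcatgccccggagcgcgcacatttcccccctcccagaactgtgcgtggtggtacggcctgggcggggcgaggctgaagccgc
Ccnb2: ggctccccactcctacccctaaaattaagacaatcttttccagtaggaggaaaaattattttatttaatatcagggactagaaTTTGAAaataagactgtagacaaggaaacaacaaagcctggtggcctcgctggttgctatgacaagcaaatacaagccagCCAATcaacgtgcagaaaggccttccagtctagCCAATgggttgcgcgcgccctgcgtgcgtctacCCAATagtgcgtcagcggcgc
Ube2c: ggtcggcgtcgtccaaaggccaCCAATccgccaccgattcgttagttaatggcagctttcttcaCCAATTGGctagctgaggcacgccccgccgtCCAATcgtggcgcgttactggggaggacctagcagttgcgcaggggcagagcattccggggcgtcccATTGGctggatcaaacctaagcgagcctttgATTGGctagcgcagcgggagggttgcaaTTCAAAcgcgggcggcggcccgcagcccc
Ccnb1: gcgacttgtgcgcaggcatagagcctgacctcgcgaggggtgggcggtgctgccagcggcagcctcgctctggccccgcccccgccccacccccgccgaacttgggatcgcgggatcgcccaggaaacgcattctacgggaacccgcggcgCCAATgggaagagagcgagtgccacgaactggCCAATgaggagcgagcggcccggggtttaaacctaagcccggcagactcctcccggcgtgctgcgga

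Among these printed runs, Cdc6 and Mcm5 each held 1 match to the E2F letters, and Cdt1 and the 3 mitotic genes held none. Ccnb2 held 3 CCAAT boxes, Ube2c 6, and Ccnb1 and Mcm5 2 each, some of them on the opposite strand, and Cdc6 and Cdt1 held none. TTTGAA occurred once each in Ccnb2 and Ube2c. Over windows of 300 bases that reach 50 bases past the start, 42 of the 50 members were found in the table. The E2F letters GCGGGAA or GCGCGAA occurred in 10 of 18 members of the replication and S phase roles (55.6%) and in 0 of 24 members of the mitotic roles, against 6.86% of the 27025 genes in the table. TTTGAA ran the other way, with 3 of 18 (16.7%) and 16 of 24 (66.7%) against 20.2% of all genes. CCAAT occurred in 10 of 18 (55.6%) and 17 of 24 (70.8%) against 41.1%. These counts describe letters in a window and say nothing about a factor.

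The cell cycle genes stood higher after TPA than at day 0 in both genotypes from day 1. Hair follicle markers were also high at days 1 and 6, as described below, and their part was not tested. In WT skin at day 1, 79 of the 106 member probe sets were higher than at day 0 and none was lower, against 11.4% of all probe sets tested that were higher. More than 3-fold were 34, against a background of 0.930%. The median change of the members was 1.32, beside -0.01 over all probe sets. In D6-deficient skin at day 1, 90 of 106 rose (background 18.2%), 35 of them more than 3-fold (1.06%), with a median change of 1.40.

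At day 2 the rise stood at about the same height. In WT skin 78 of 106 rose (background 11.0%) and 29 did so more than 3-fold (1.20%), with a median of 1.20. In D6-deficient skin 80 rose (17.5%) and 24 more than 3-fold (1.70%), with a median of 1.13, although 14 passed 3-fold without day 0 replicate 2. No member fell at day 1 or day 2 in either genotype. At an unadjusted p under 0.05 there were none lower either, and the change was positive in 101 and 105 of the 106 probe sets at day 1 and in 102 of them at day 2 in each genotype.

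At day 4 the genotypes are best described one at a time. In WT skin 74 of 106 member probe sets were still above day 0 (background 17.3%), but the number past 3-fold was 8 (1.76%) and the median was 0.92. In D6-deficient skin 31 were above day 0 (18.8%), 2 of them more than 3-fold (1.97%), and 2 were below it, where 22.4% of all probe sets were lower. The median change in D6-deficient skin was 0.37. The 31 did not change by more than 1.5 times when any single array was left out, while the count past 3-fold was 0 without day 0 replicate 2 and 1 without day 4 replicate 1 or 3.

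By day 6 the members were up again. In WT skin 84 rose (background 10.2%), 42 more than 3-fold (0.799%), with a median of 1.39. In D6-deficient skin 89 rose (16.0%), 32 more than 3-fold (0.888%), also with a median of 1.39. By the methods' t-test 87 and 72 rose at day 6 at an unadjusted p under 0.05, and 0 in each genotype after adjustment. After adjustment the counts for WT and D6-deficient skin were 15 and 81 on day 1, 68 and 77 on day 2, then 53 and 33 on day 4. The counts past 3-fold leaned on single arrays at days 1 and 6. In WT skin at day 1 the 34 became 54 without replicate 2 and 19 without replicate 3, and at day 6 the 42 became 26 without replicate 2. In D6-deficient skin at day 6 the 32 became 13 without replicate 2 and 57 without replicate 3.

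**Figure D1:**
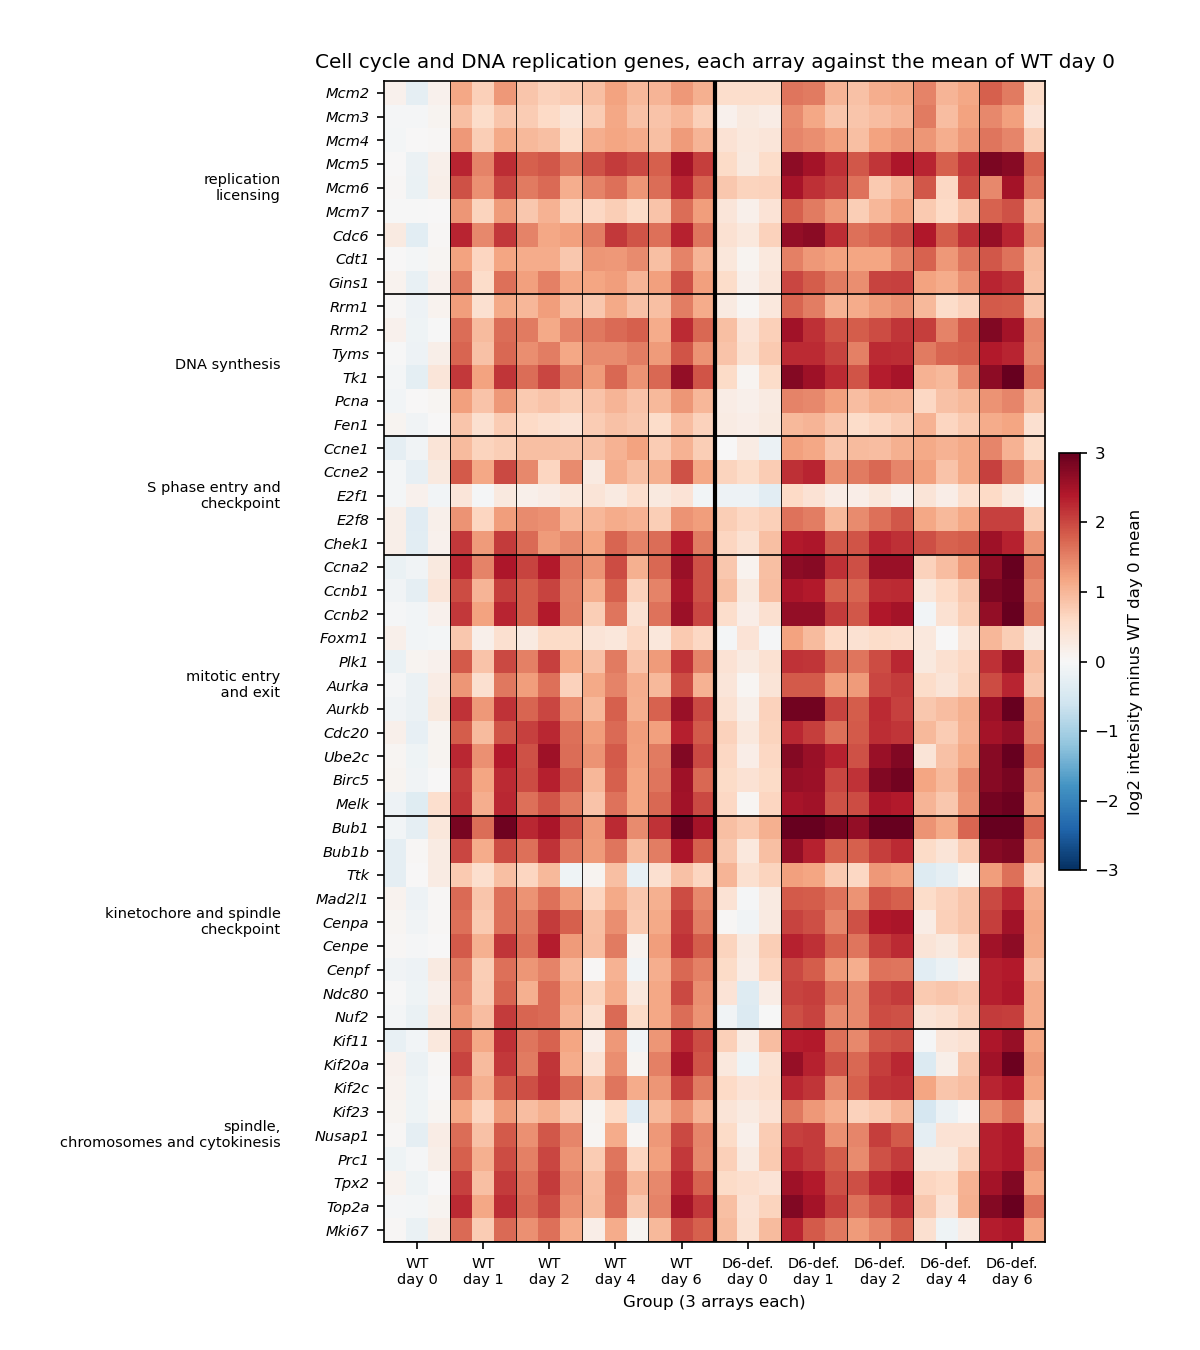
Log2 intensity of the brightest probe set of each of the 49 genes (rows, grouped by role) on each of the 30 arrays (columns, 3 per group of genotype and day), as the difference from the mean of the 3 WT day 0 arrays. Colours end at 3 in either direction. The rows of the mitotic roles pale at day 4 in D6-deficient skin and less so in WT skin, while the licensing and DNA synthesis rows stay red.

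The plot of every gene on every array shows the main pattern of the time course. Among the 49 genes, each by its brightest probe set, the lowest day after TPA was day 4 for 40 genes in D6-deficient skin and for 34 in WT skin. In D6-deficient skin the 40 were all 29 genes of the 3 mitotic roles, 5 of 6 DNA synthesis genes, 3 of 5 S phase genes and 3 of 9 licensing genes. In WT skin the lowest day was day 4 for 28 of those 29, the exception being in the group of genes for mitotic entry and exit. For licensing the lowest day was day 2 in 6 of 9 genes of D6-deficient skin and in 7 of 9 of WT skin. In WT skin 2 of 6 DNA synthesis genes and 2 of 5 S phase genes were lowest at day 4.

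Licensing genes assemble the helicase at origins before S phase. Mcm5, a helicase subunit, had a log2 intensity of 8.05, 7.88 and 8.21 on the WT day 0 arrays, 10.34, 9.54 and 10.25 at day 1, 9.85, 9.92 and 9.63 at day 2, 9.95, 10.15 and 10.03 on day 4, and 9.83, 10.54 and 10.13 on day 6. In D6-deficient skin it was 8.63, 8.34 and 8.60 at day 0, then 10.72, 10.55 and 10.24, then 9.90, 10.19 and 10.47, then 10.34, 9.85 and 10.16 on day 4, and 10.87, 10.78 and 9.82 on day 6. Every array after TPA lay above every day 0 array of its genotype. The rise in D6-deficient skin was 1.66 at day 2 (SE 0.24, limma adjusted p = 6e-06) and 1.59 at day 4 (SE 0.24, adjusted p = 7.9e-06), and the change between those days was -0.07 (adjusted p = 0.90). That last value changed sign without day 2 replicate 3 or day 4 replicate 2.

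Mcm2, another subunit of the helicase, had probe sets that differed in size of change, and the brighter is given first. Its WT values were 7.74, 7.34 and 7.75 at day 0, 8.76, 8.33 and 8.91 at day 1, 8.44, 8.29 and 8.37 at day 2, 8.52, 8.81 and 8.58 on day 4, and 8.64, 8.92 and 8.67 on day 6. Its D6-deficient values were 8.13 on each day 0 array, then 9.21, 9.18 and 8.62, then 8.50, 8.70 and 8.74, then 9.09, 8.62 and 8.76, and 9.41, 9.18 and 8.18 at day 6. The arrays after TPA again stood above day 0, with 1 D6-deficient array at day 6 only just so. Mcm2 rose by 0.69 at day 4 in D6-deficient skin (SE 0.22, adjusted p = 0.013), and its rise of 0.76 at day 2 in WT skin missed the threshold without WT day 0 replicate 2 (adjusted p = 0.068). At day 2 in D6-deficient skin its change of 0.51 did not pass (adjusted p = 0.068). The other Mcm2 probe set rose by 1.28 at day 2 (adjusted p = 0.00053) and by 1.33 at day 4 (adjusted p = 0.00030) in D6-deficient skin.

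Cdc6 loads the helicase, and its promoter is the first printed above. By brightest probe set Cdc6 showed the largest licensing rise at day 1 in D6-deficient skin. Its D6-deficient values were 5.20, 5.08 and 5.44 at day 0, 7.40, 7.45 and 6.97 at day 1, 6.41, 6.53 and 6.69 at day 2, 7.16, 6.56 and 6.92 on day 4, and 7.37, 7.03 and 6.16 on day 6. The groups after TPA did not overlap day 0. It rose 4.10-fold at day 1 (adjusted p = 2.8e-06) and 3.11-fold at day 4 (adjusted p = 1.9e-05), and with Mcm5 at 3.01-fold it supplied the 2 members past 3-fold at day 4. Of the 23 licensing probe sets, 17 were above day 0 at day 4 in D6-deficient skin, whereas WT skin had 21. Besides the genes already given, Mcm3, Mcm4, Mcm6, Cdt1 and Gins1 rose in D6-deficient skin at day 4 by 0.76 to 1.31, whereas Mcm7 at 0.43 did not pass (adjusted p = 0.11). The other 3 probe sets of Mcm7 gave 0.83 and 0.82, which passed (adjusted p = 0.0060 and 0.0026), and 0.48, which did not. Mcm6 at 0.76 was near the threshold (adjusted p = 0.043). Its day 4 arrays, 9.82, 8.56 and 9.91, overlapped those of day 0 (8.77, 8.61 and 8.64). Its other tested probe set gave 0.78 and did not pass (adjusted p = 0.14). At day 2 the brightest Mcm6 probe set did not pass either (0.42, adjusted p = 0.28).

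DNA synthesis members supply nucleotides and the sliding clamp. Rrm2, the regulated subunit of ribonucleotide reductase, had WT values of 8.47, 8.21 and 8.32 at day 0, 10.01, 9.28 and 10.01 at day 1, 9.90, 9.47 and 9.83 at day 2, 9.92, 10.04 and 10.13 on day 4, and 9.45, 10.58 and 10.05 on day 6. In D6-deficient skin the values were 9.24, 8.74 and 9.05 at day 0, then 10.86, 10.52 and 10.22, then 10.15, 10.29 and 10.48, then 10.40, 9.82 and 10.17 on day 4, and 11.12, 10.82 and 9.80 on day 6. No array after TPA overlapped day 0 of its genotype, and day 4 was within the range of the other days. Rrm2 rose 2.17-fold at day 4 in D6-deficient skin (adjusted p = 0.0022) and 3.24-fold in WT skin (adjusted p = 3.4e-05). Another of its probe sets fell by 0.94 between days 2 and 4 in D6-deficient skin (adjusted p = 0.040), so its probe sets disagreed on that step.

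Pcna, the clamp that holds DNA polymerase to its template, was the brightest member. Its WT values were 11.38, 11.48 and 11.52 at day 0, 12.68, 12.31 and 12.75 at day 1, 12.25, 12.31 and 12.19 at day 2, 12.31, 12.49 and 12.32 on day 4, and 12.43, 12.79 and 12.46 on day 6. Its D6-deficient values were 11.69, 11.61 and 11.74 at day 0, then 12.94, 12.91 and 12.69, then 12.39, 12.53 and 12.50, then 12.07, 12.35 and 12.43, and 12.80, 12.93 and 12.41. Its narrow spread gave it small errors, with a rise of 0.60 at day 4 in D6-deficient skin (SE 0.13, adjusted p = 0.00067) and of 0.91 in WT skin (SE 0.13, adjusted p = 7e-06).

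Tk1, thymidine kinase, rose most of this role at day 1 in D6-deficient skin by brightest probe set, 4.32-fold (adjusted p = 1.1e-05). Fen1, the flap endonuclease that trims Okazaki fragments, rose least by that measure, 1.61-fold (adjusted p = 0.00061). The probe sets disagreed on this ranking, since the other one of Fen1 rose 3.14-fold (limma adjusted p = 1.5e-06) and another of Rrm2 rose 5.96-fold. Tk1 was 8.07, 8.54 and 8.66 at day 2 and 7.24, 7.15 and 7.65 at day 4 in D6-deficient skin. It was the 1 replication gene of 20 whose brightest probe set fell between those days, by 1.08 (SE 0.30, adjusted p = 0.015). Tyms, thymidylate synthase, rose at every day in both genotypes by 0.98 to 1.50, on a probe set that also matches a Tyms pseudogene. Rrm1, the other reductase subunit, was 0.53 above day 0 at day 4 in D6-deficient skin and did not pass (adjusted p = 0.074), while a second probe set rose by 1.08 (adjusted p = 0.0031) and a dim one gave -0.05.

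The 13 probe sets of S phase entry and its checkpoint had a median rise at day 1 of 0.54 in WT and 0.67 in D6-deficient skin, the lowest of the 6 roles. E2f1, the transcription factor that switches on replication genes, was 6.82, 7.01 and 6.80 in WT skin at day 0, 7.25, 6.84 and 7.17 at day 1, 7.02, 7.10 and 7.19 at day 2, 7.26, 7.14 and 7.38 on day 4, and 7.16, 7.28 and 6.80 on day 6. Its D6-deficient values were 6.72, 6.72 and 6.57 at day 0, then 7.47, 7.31 and 7.11, then 7.08, 7.21 and 7.01, then 7.27, 7.08 and 7.39, and 7.47, 7.20 and 6.90. Groups overlapped in WT skin except at days 2 and 4, and no group overlapped day 0 in D6-deficient skin. E2f1 passed the test in WT skin at day 4 alone (0.39, adjusted p = 0.033) and in D6-deficient skin at days 1, 2, 4 and 6 (0.43 to 0.63), but at day 2 not without day 0 replicate 3 or day 2 replicate 2. A second probe set of equal brightness passed on no day, with 0.19 to 0.40 in D6-deficient skin. The difference between the genotypes in its day 4 change was 0.19 and did not pass (SE 0.20, adjusted p = 0.83).

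Chek1, the kinase of the replication checkpoint, had the largest rise of the role, 2.94-fold at day 1 in D6-deficient skin (adjusted p = 8.1e-05), and was still up 2.25-fold at day 4 (adjusted p = 0.001). Ccne1, a G1/S cyclin, rose by 0.78 to 1.07 on every day in both genotypes by its brightest probe set, with 1.05 for WT and 1.07 for D6-deficient mice on day 4. The other Ccne1 probe set differed. In WT skin it gave 0.48 to 0.64 and did not pass at day 2 (limma adjusted p = 0.052), and in D6-deficient skin it rose by 1.13 to 1.40. Its day 4 changes were 0.64 and 1.36, a difference of 0.72 that did not pass (SE 0.26, limma adjusted p = 0.23). Ccne2, a relative of Ccne1, and E2f8, a repressor of the E2F family, rose at days 1, 2 and 6 in both genotypes and at day 4 in WT skin. At day 4 in D6-deficient skin both stood at 0.41 and did not pass.

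**Figure D2:**
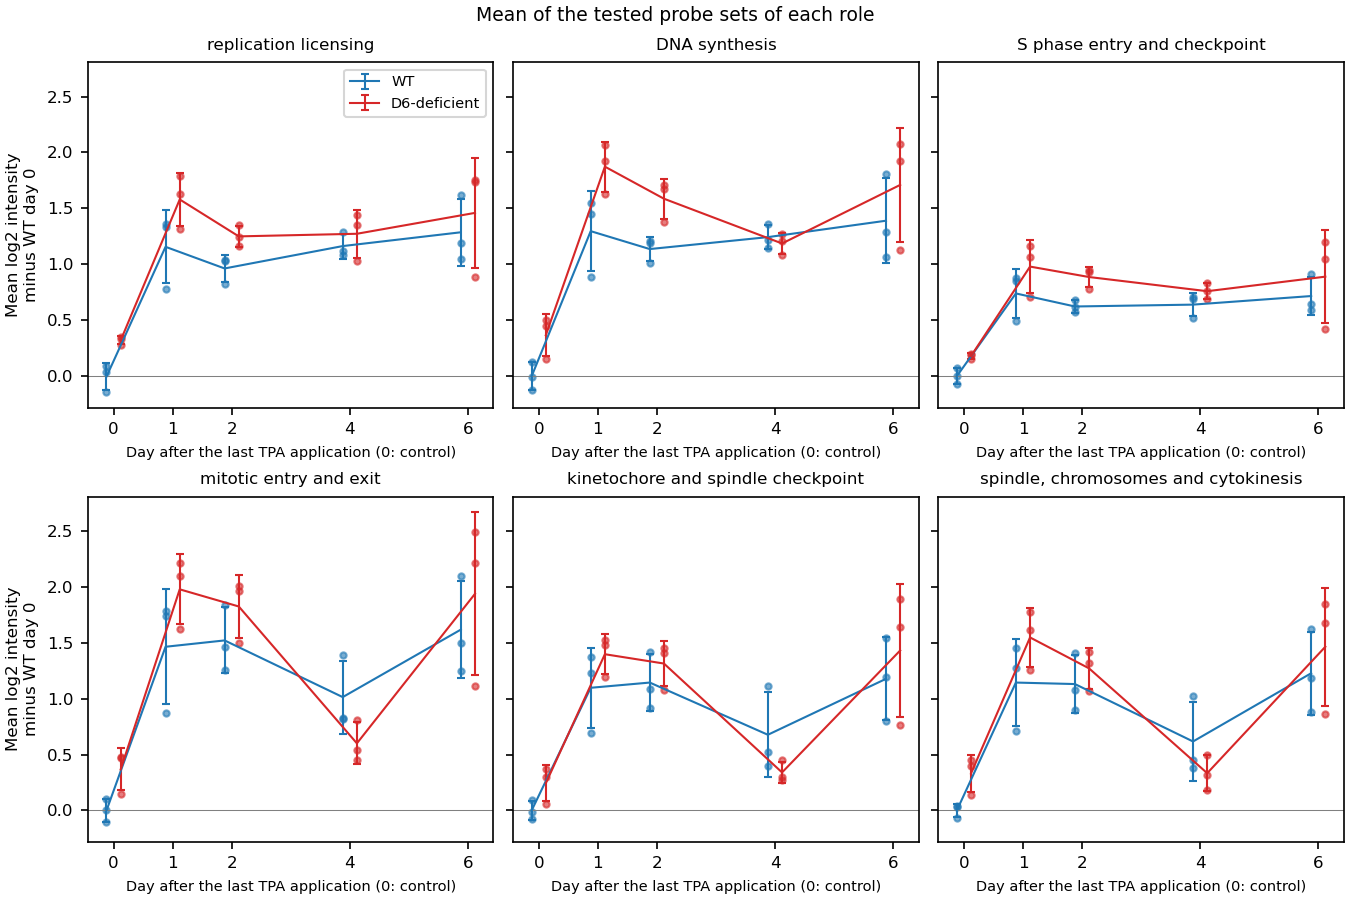
Average log2 intensity of the tested probe sets of each role, as the difference from the mean of the WT day 0 arrays (y axis), against the day after the last TPA application (x axis). Points are single arrays, lines join group means, and bars are SD of 3 arrays. At day 4 the 3 D6-deficient arrays lie between 1.03 and 1.44 for licensing and between 0.18 and 0.50 for spindle, chromosomes and cytokinesis.

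The 21 probe sets of mitotic entry and exit had the highest median rise of the 6 roles at day 1, 1.64 for WT and 1.63 for D6-deficient skin, and 18 of them fell between days 2 and 4 in the latter. Ccnb1, cyclin B1, which drives entry into mitosis, was 7.44, 7.28 and 7.90 in WT skin at day 0, 9.50, 8.55 and 9.61 at day 1, 9.36, 9.57 and 9.08 at day 2, 8.63, 9.33 and 8.22 on day 4, and 9.02, 10.01 and 9.44 on day 6. In D6-deficient skin it was 8.44, 7.84 and 8.46 at day 0, then 9.98, 9.92 and 9.33, then 9.29, 9.75 and 9.77, then 7.88, 8.14 and 8.34 on day 4, and 10.36, 10.46 and 8.99 on day 6. The day 4 arrays of D6-deficient skin thus lay inside its day 0 range, whereas those of WT skin lay above theirs. Between days 2 and 4 Ccnb1 fell by 1.49 in D6-deficient skin (SE 0.35, adjusted p = 0.0040), and between days 4 and 6 it rose by 1.82 (SE 0.35, adjusted p = 0.00029). In WT skin it was 1.19 above day 0 at day 4 (adjusted p = 0.0086).

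Ccna2, cyclin A2, which acts in S phase and at the entry to mitosis, followed the same course. Its WT values were 7.23, 7.32 and 7.71 at day 0, 9.69, 8.91 and 9.85 at day 1, 9.44, 9.80 and 9.03 at day 2, 8.77, 9.37 and 8.49 on day 4, and 9.15, 10.02 and 9.33 on day 6. In the D6-deficient arrays it was 8.24, 7.53 and 8.32 at day 0, then 10.11, 10.16 and 9.62, then 9.35, 10 and 10.01, then 8.12, 8.34 and 8.73 on day 4, and 10.08, 10.50 and 9.01 on day 6. Day 4 overlapped day 0 in D6-deficient skin only. The fall between days 2 and 4 was 1.39 there (SE 0.34, adjusted p = 0.0050).

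Ccnb2, cyclin B2, whose promoter is printed above, showed the deepest fall among the 49 brightest probe sets. In D6-deficient skin it went from 8.95, 9.49 and 9.59 at day 2 to 7.02, 7.56 and 7.84 at day 4, a 3.66-fold fall (adjusted p = 0.00043), and it had been 7.63, 7.30 and 7.58 at day 0. Ube2c, the ubiquitin-conjugating enzyme of the anaphase-promoting complex, fell by 1.62. Plk1, the Polo-like kinase of mitotic entry, fell by 1.47, and Birc5, survivin of the chromosomal passenger complex, by 1.43. Aurkb, the kinase of that complex, had the largest day 1 rise of the role in D6-deficient skin by brightest probe set, 4.46-fold (adjusted p = 2.7e-05). It fell by 1.11 between days 2 and 4.

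Foxm1, the forkhead factor that activates mitotic genes, had the smallest day 1 rise of the role in D6-deficient skin by brightest probe set. Its WT values were 5.91, 5.68 and 5.69 at day 0, 6.56, 5.91 and 6.23 at day 1, 6.02, 6.34 and 6.34 at day 2, 6.15, 6.10 and 6.38 on day 4, and 6.09, 6.55 and 6.39 on day 6. Its D6-deficient values were 5.71, 6.18 and 5.73 at day 0, then 6.96, 6.70 and 6.36, then 6.21, 6.32 and 6.27, then 6.08, 5.78 and 6.14, and 6.75, 6.50 and 6.02. It rose at day 1 and day 6 in D6-deficient skin (0.80 and 0.55) and at day 6 in WT skin (0.58), and its 0.48 at day 2 in WT skin missed the threshold (adjusted p = 0.064). Its change of -0.27 between days 2 and 4 in D6-deficient skin did not pass, alone among the brightest probe sets of the 29 mitotic genes. Its other 3 probe sets gave -0.39, -0.61 and -1.07, of which the last passed (adjusted p = 0.047) and is shared with other symbols. Those 3 rose at day 1 in D6-deficient skin by 0.72, 1.19 and 1.54.

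Kinetochore members tie chromosomes to the spindle and hold the checkpoint. Bub1, a checkpoint kinase, was 5.34, 5.14 and 5.76 in WT skin at day 0, 8.27, 7.09 and 8.33 at day 1, 7.68, 7.86 and 7.34 at day 2, 6.72, 7.66 and 6.83 on day 4, and 7.57, 8.37 and 7.90 on day 6. The D6-deficient arrays gave 6.31, 6.19 and 6.49 at day 0, then 8.85, 8.70 and 8.26, then 8.06, 8.57 and 8.51, then 6.75, 6.54 and 7.17 on day 4, and 8.84, 8.86 and 7.17 on day 6. At day 0 the D6-deficient arrays were above all WT arrays, and at day 4 they fell within the WT range apart from 1 lower array. By brightest probe set Bub1 had the largest day 1 rise of the 49 genes in each genotype, 5.60-fold in WT skin (adjusted p = 2.6e-05) and 4.82-fold in D6-deficient skin (adjusted p = 3.9e-05).

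Ttk, the checkpoint kinase Mps1, went below its day 0 level. In D6-deficient skin it was 8.02, 7.48 and 7.67 at day 0, 7.62, 8.30 and 8.23 on day 2, and 6.63, 6.74 and 7.09 on day 4, a fall of 0.90 from day 0 (SE 0.29, adjusted p = 0.013) with no overlap. The call was lost without day 0 replicate 1 (adjusted p = 0.067), and a dim second probe set stood at 0.03. In WT skin the day 0 arrays were 6.74, 7.02 and 7.26 and the day 4 arrays 7.10, 7.90 and 6.78, which overlapped. The other 8 kinetochore genes, among them Mad2l1, Cenpe, Ndc80 and Nuf2, rose at days 1, 2 and 6 in both genotypes, and none was above day 0 at day 4 in D6-deficient skin by the test.

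Spindle, chromosome and cytokinesis members include the proliferation marker Mki67. Its WT values were 9.05, 8.80 and 9.18 at day 0, 10.70, 9.77 and 10.72 at day 1, 10.37, 10.67 and 10.12 at day 2, 9.20, 10.13 and 9.09 on day 4, and 9.98, 11.00 and 10.81 on day 6. The D6-deficient arrays gave 9.97, 9.46 and 9.97 at day 0, then 11.29, 10.84 and 10.59, then 10.28, 10.49 and 10.82, then 9.50, 8.89 and 9.23 on day 4, and 11.37, 11.44 and 10.20 on day 6. The D6-deficient day 0 arrays lay above the WT day 0 arrays, and at day 4 the WT and D6-deficient arrays overlapped. Mki67 fell by 1.33 between days 2 and 4 in D6-deficient skin (SE 0.33, adjusted p = 0.0063) and rose by 1.80 between days 4 and 6 (SE 0.33, adjusted p = 0.00018). It was not above day 0 at day 4 in WT skin by the test (0.46, adjusted p = 0.28) or at day 2 in D6-deficient skin (0.73, adjusted p = 0.083).

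Top2a, the topoisomerase that untangles sister chromatids, was 7.73, 7.70 and 7.85 in WT skin at day 0, 9.99, 8.92 and 9.97 at day 1, 9.45, 9.73 and 9.12 at day 2, 8.70, 9.45 and 8.56 on day 4, and 9.26, 10.26 and 9.89 on day 6. The D6-deficient arrays gave 8.67, 8.20 and 8.42 at day 0, then 10.54, 10.25 and 9.84, then 9.38, 9.67 and 9.98, then 8.58, 8.16 and 8.82 on day 4, and 10.51, 10.73 and 9.39 on day 6. Day 4 overlapped day 0 in D6-deficient skin and lay above it in WT skin (1.15, adjusted p = 0.0069). The fall of 1.15 between days 2 and 4 (adjusted p = 0.016) missed the threshold without day 2 replicate 3 (0.079) or day 4 replicate 2 (0.078). Of its 3 probe sets 1 did not move at day 1 (-0.03).

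Kif23, a kinesin of the cytokinetic midzone, was the other member to fall below day 0 at day 4 in D6-deficient skin, from 7.61, 7.48 and 7.63 to 6.71, 7.05 and 7.25. The groups did not overlap, but the fall of 0.57 was near the threshold (SE 0.22, adjusted p = 0.043) and was lost when any 1 array of either group other than day 4 replicate 3 was left out (adjusted p = 0.059 to 0.18). A dim second Kif23 probe set stood at -0.20. Kif20a, a kinesin needed for the end of mitosis, rose 4.20-fold at day 1 in D6-deficient skin (adjusted p = 0.00028) and fell by 1.83 between days 2 and 4 (SE 0.40, adjusted p = 0.0022). Kif11, Kif2c, Nusap1, Prc1 and Tpx2, which act on spindle microtubules, fell there by 1.06 to 1.61.

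The step between days 2 and 4 in D6-deficient skin separated the roles. Of the 106 member probe sets 47 fell and none rose, against 8.54% of all probe sets that fell, and 7 fell more than 3-fold (0.777%). Of the 47, 45 were among the 59 probe sets of the mitotic roles and 2 among the 47 of the replication and S phase roles. By brightest probe set, 28 of 29 mitotic genes fell and 1 of 20 replication genes did. The median change was -1.15 over the mitotic probe sets and -0.07 over the replication probe sets, beside 0.02 over all probe sets. By the methods' t-test 56 were lower at an unadjusted p under 0.05 and 1 after adjustment. The 47 became 31 without day 2 replicate 3, and the 7 became 18 without day 2 replicate 1, 14 without day 4 replicate 3 and 3 without day 4 replicate 1. No label names technical sets, so the arrays were clustered by their hybridization controls into 2 sets, a number fixed beforehand. The member median for this step was -0.68 in the one, from 1 array a day, and -0.47 in the other, from 2 arrays a day. The grouping of roles into replication and mitosis was made after these values were seen, and no test compares the groupings.

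Measured from day 0 the same split appeared. At day 4 in D6-deficient skin 31 of the 47 replication and S phase probe sets were above day 0 and 0 of the 59 mitotic ones, while 2 mitotic ones, Ttk and Kif23, were below. Beside the limma count of 0, 5 mitotic probe sets were higher at an unadjusted p under 0.05. Medians were 0.83 and 0.09. In WT skin at day 4 the corresponding counts were 40 of 47 and 34 of 59, with medians of 1.05 and 0.83.

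**Figure D3:**
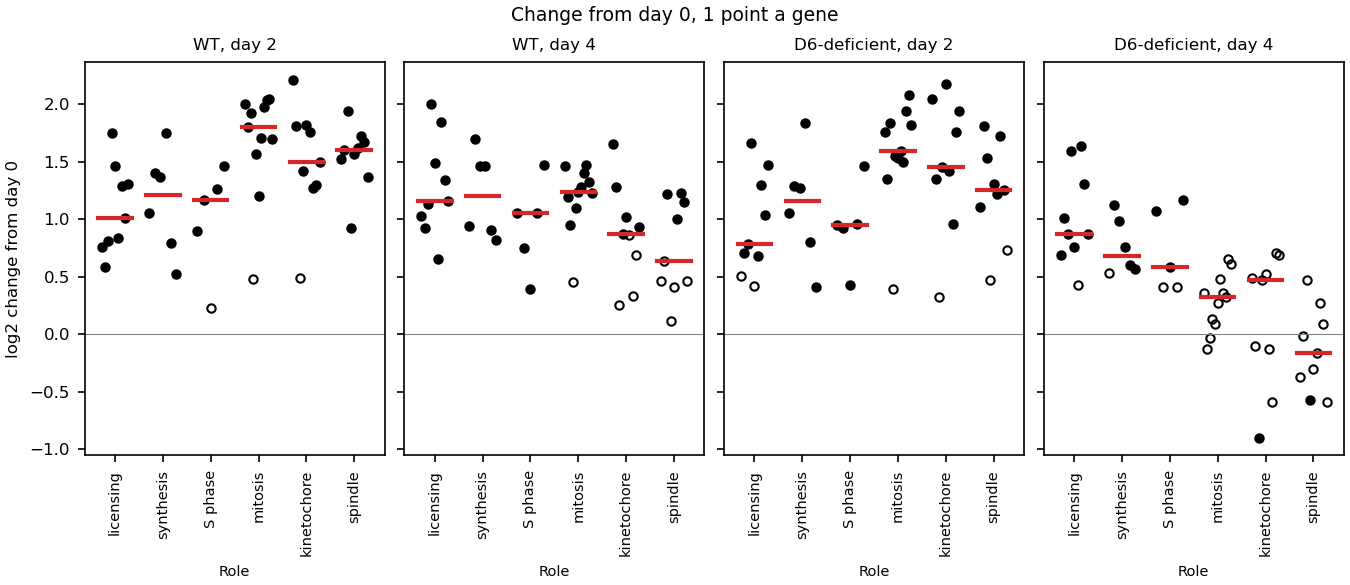
Change in log2 intensity from day 0 (y axis) of each of the 49 genes by its brightest probe set, by role (x axis), at days 2 and 4 in WT and D6-deficient skin. Filled points passed limma's adjusted p of 0.05, open points did not, and red lines are role medians. At day 4 in D6-deficient skin 16 of 20 replication and S phase genes are filled and above 0, and the 2 filled mitotic genes are below it.

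In WT skin the step between days 2 and 4 was smaller. Here 3 member probe sets fell, those of Kif11, Kif23 and Nusap1, and 1 of Mcm3 rose. A background of 7.39% of all probe sets fell, a larger share than that of the members. The count was 0 without day 2 replicate 2 and 16 without day 4 replicate 2, the WT array with the highest mitotic mean that day (1.18 against 0.60 and 0.55). The median change was -0.56 over the mitotic probe sets and 0.12 over the replication ones.

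The members climbed again between days 4 and 6. In D6-deficient skin 57 of 106 rose (background 16.8%), 17 more than 3-fold (1.57%), of which 49 of the 57 and all 17 were mitotic, and 1 probe set of Tpx2 fell by 0.51 (adjusted p = 0.030). By the methods' t-test 33 were higher at an unadjusted p under 0.05 and 0 after adjustment. The 17 became 11 without day 4 replicate 1 or day 6 replicate 1, 4 without day 6 replicate 2 and 39 without day 6 replicate 3. All 3 D6-deficient day 6 arrays fell in the same technical set, which held 1 D6-deficient day 4 array, so the sets were not balanced over this step. Within that set the member median was 0.68 from day 4 and 1.3 from day 0, the latter also against 1 array. With the sets as a covariate 52 rose between days 4 and 6. In WT skin 12 rose (background 12.1%, close to the members' own share), 11 of them mitotic, and this count ran from 1 without day 4 replicate 3 to 23 without day 4 replicate 2.

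Between the genotypes on the same day 1 member probe set passed the test. Of 106 probe sets 0 passed at day 0 (background 1.57%, 19 at an unadjusted p under 0.05), 0 at day 1 (0.0555%, 25 unadjusted), 1 at day 2 (4.45%, 11 unadjusted), 0 at day 4 (0.513%, 6 unadjusted) and 0 at day 6 (0.125%, 3 unadjusted). By the methods' t-test the unadjusted counts were 44, 4, 18, 5 and 0, and after adjustment 0 on each day. With 3 arrays a group, an exact permutation test cannot give a p under 0.1. The median difference, D6-deficient minus WT, was 0.31, 0.45, 0.26, -0.16 and 0.29 at days 0, 1, 2, 4 and 6. Within the 2 technical sets it was 0.44 and 0.21 at day 0, 0.42 and 0.19 on day 2, and -0.04 and -0.37 on day 4. Each of these values rests on 1 array of one genotype and 2 of the other.

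Day 0 had the most orderly difference. For 45 of 106 member probe sets all 3 D6-deficient arrays lay above all 3 WT arrays, against 10.8% of all probe sets, and by brightest probe set this held for 31 of 49 genes. The smallest adjusted p was that of Tyms, 0.71 higher in D6-deficient skin (SE 0.24, adjusted p = 0.13). Bub1 was 0.91 higher (SE 0.36, adjusted p = 0.23) and Mki67 0.79 higher (SE 0.33, adjusted p = 0.26). The stressed epidermis markers, such as Krt6a and Krt16, were also higher at day 0 in D6-deficient skin, with a mean level of 1.04 to 2.09 relative to WT day 0 against -0.39 to 0.53 on the WT arrays. The basal epidermis list stood at 0.25 to 0.63 against -0.04 to 0.03, the suprabasal list at 0.34 to 0.58 against -0.13 to 0.21, and the sebaceous gland list at 0.15 to 0.43 against -0.11 to 0.08, all without overlap. The macrophage list lay below the WT arrays, at -0.71 to -0.33 against -0.10 to 0.05, and the other 6 lists overlapped, with the hair list at -0.02 to 0.13 against -0.09 to 0.15. The part of these markers in the difference was not tested.

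At day 4 the direction of most genes was the other way, but none passed the test. By brightest probe set 33 of 49 genes were lower in D6-deficient skin. All 3 D6-deficient arrays lay below all WT arrays for 5 of the 49 genes and for 12 of 106 probe sets. This was not far above the 7.37% of all probe sets. The median difference was -0.38 over the mitotic probe sets and 0.09 over the replication ones. The probe set with the smallest p was 1 of the 4 of Ccnb1, at -0.95 (SE 0.41, adjusted p = 0.42).

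The single member to pass between the genotypes was a probe set of Cenpa, the histone of the centromere. Its mean over the arrays was 5.52, against 8.81 for the brightest Cenpa probe set. At day 2 the passing probe set was 5.80, 6.38 and 6.31 in WT and 5.20, 5.27 and 4.56 in D6-deficient skin, a difference of -1.15 (SE 0.29, adjusted p = 0.020) with no overlap. It was lower in D6-deficient skin at day 0 as well, with 5.79, 5.64 and 5.20 against 4.96, 4.78 and 4.85. The same held without overlap at day 1 (5.77, 5.95 and 6.44 against 5.19, 4.77 and 5.11). At day 4 the values were 5.70, 6.39 and 5.35 against 4.94, 5.23 and 5.31, and at day 6 the groups overlapped. The call was lost without WT day 2 replicate 2 or 3 or without D6-deficient day 2 replicate 3 (adjusted p = 0.083 to 0.13). The brightest Cenpa probe set went the other way at day 2, with 9.13, 9.68 and 9.37 in WT and 9.48, 9.97 and 10.02 in D6-deficient skin.

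**Figure D4:**
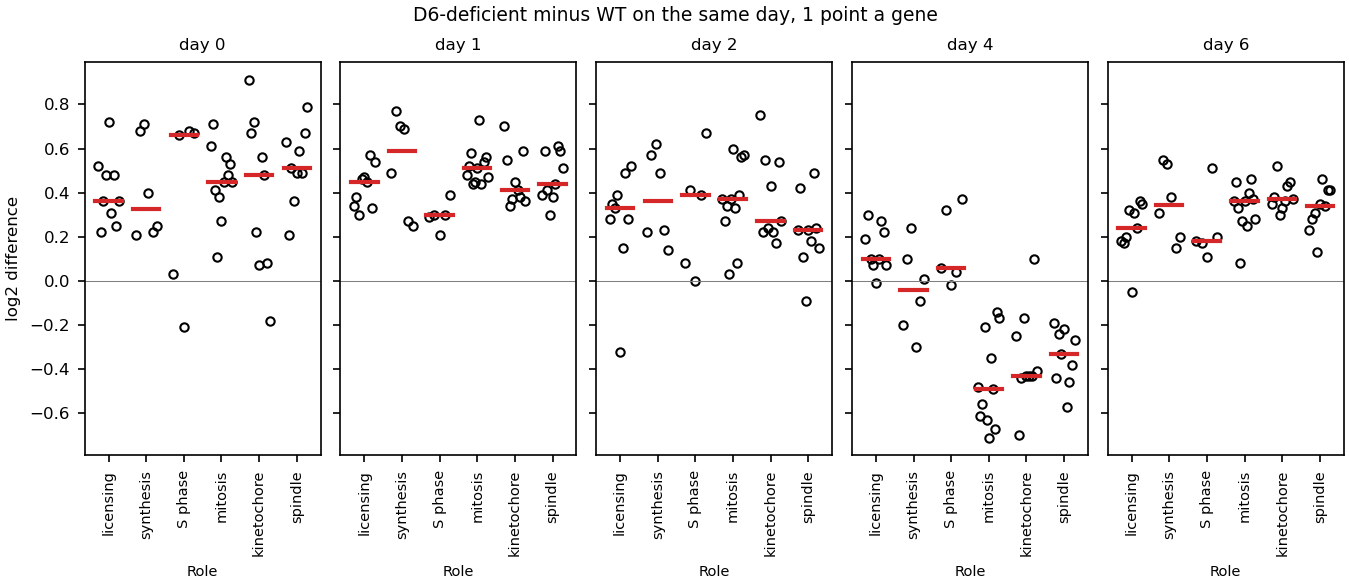
Difference in log2 intensity between D6-deficient and WT skin on the same day (y axis) for the brightest probe set of each of the 49 genes, by role (x axis). Red lines are role medians. All points are open because no brightest probe set passed limma's adjusted p of 0.05, and 33 of the 49 points lie below 0 at day 4.

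Whether the response to TPA itself differed was tested as the change from day 0 in D6-deficient minus that in WT skin. By limma 0 of 106 member probe sets passed at day 1 (background 0.0194%, 5 unadjusted), 0 at day 2 (5.40%, 3 unadjusted), 0 at day 4 (0.608%, 21 unadjusted) and 0 at day 6 (0.0250%, 1 unadjusted). The methods' t-test gave 3, 4, 30 and 1 unadjusted and 0 after adjustment. At day 4 the median was -0.67 over the mitotic probe sets and -0.22 over the replication ones. The smallest p belonged to Bub1b, the checkpoint protein BubR1, at -1.38 (SE 0.45, adjusted p = 0.18), followed by Ttk at -1.16 (SE 0.40, adjusted p = 0.22). These differences share the day 0 arrays, in which D6-deficient skin was already higher.

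Other genes of the same pathways behaved much as the members did. Of 100 further mitosis probe sets, covering 50 genes such as Cdk1, the mitotic kinase, 80 rose and none fell at day 1 in D6-deficient skin (backgrounds 18.2% and 18.1%). At day 4 10 were above day 0 and 2 below (18.8% and 22.4%), and 50 fell between days 2 and 4 (8.54%), with a median of -0.83. Cdk1 rose by 2.03 at day 1 (SE 0.31, adjusted p = 2.4e-05) and fell by 1.14 between days 2 and 4 (adjusted p = 0.013). Aspm, which organizes spindle poles, and Stmn1, which destabilizes microtubules, were below day 0 at day 4 by 1.20 and 1.01 (adjusted p = 0.0048 and 0.0038). Lmnb1, lamin B1 of the nuclear envelope, went against the list, at 1.40 and 2.62 above day 0 on its 2 probe sets.

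Of 84 further replication probe sets covering 44 genes, 61 rose at day 1 in D6-deficient skin and 49 were still above day 0 at day 4, with 2 below. Between days 2 and 4, 5 fell and 1 rose (backgrounds 8.54% and 7.76%), with a median of -0.03. Uhrf1, which carries DNA methylation through replication, and Exo1, an exonuclease, rose most, by 2.51 and 2.27 at day 1 and by 1.56 and 1.51 at day 4. The brighter of the 2 Uhrf1 probe sets gave 2.05 and 1.23. The largest falls at day 4 were small, 0.29 for Orc5 and 0.25 for 1 probe set of Orc4, both subunits of the origin recognition complex.

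The lists of G1 regulators and of inhibitors held both rises and falls. Of 46 probe sets of G1 cyclins, CDKs and the E2F and Rb families, 22 rose and 3 fell at day 1 in D6-deficient skin, against backgrounds of 18.2% and 18.1%, and 14 rose and 6 fell at day 4, against 18.8% and 22.4%. Cdk4, the G1 kinase, rose by 1.76 at day 1 on 1 of its 3 probe sets and by 1.46 on the brightest, and Mycn by 2.99 on a probe set that its brightest one (0.08) did not match. At day 4 Ccnd3, cyclin D3, was up by 1.14 (SE 0.14, adjusted p = 3.4e-07) and E2f7, an E2F repressor, by 1.13 (SE 0.28, adjusted p = 0.0023), while 1 probe set of Tfdp2, an E2F partner, was down by 1.53. Of 30 probe sets of proliferation inhibitors 10 rose and 4 fell at day 1, led by Trp53 (1.50) and Ccng1 (-1.19), and 8 rose and 4 fell at day 4, beside the same backgrounds. Cdkn2d, the CDK4/6 inhibitor p19, was then up by 1.33 (SE 0.12, adjusted p = 3.6e-09, on a probe set shared with a second symbol), Gadd45b, a stress sensor, up by 1.17, and Cdkn1b, the inhibitor p27, down by 1.10.

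Markers of the hair follicle and of the epidermis moved with the members on some days and not on others. The hair follicle matrix and shaft list, with 19 of its 22 genes tested, stood at 1.77 to 3.98 on the WT arrays and 3.56 to 4.33 on the D6-deficient arrays at day 1, relative to WT day 0. At day 6 it stood at 3.21 to 4.66 and 3.34 to 6.90. At days 2 and 4 it was between -0.05 and 0.26 in both genotypes, while the members stood at 0.94 to 1.50 at day 2. In each group of days 1 and 6 the same array was lowest in both the members and the hair list. In WT skin these were day 1 replicate 2 (0.75 and 1.77) and day 6 replicate 1 (0.97 and 3.21). In D6-deficient skin they were day 1 replicate 3 (1.31 and 3.56) and day 6 replicate 3 (0.88 and 3.34). The same arrays were also lowest of their groups in the stressed epidermis list (3.62, 2.09, 4.21 and 3.13), so this was not particular to hair. The part of hair growth in the member levels was not tested.

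**Figure D5:**
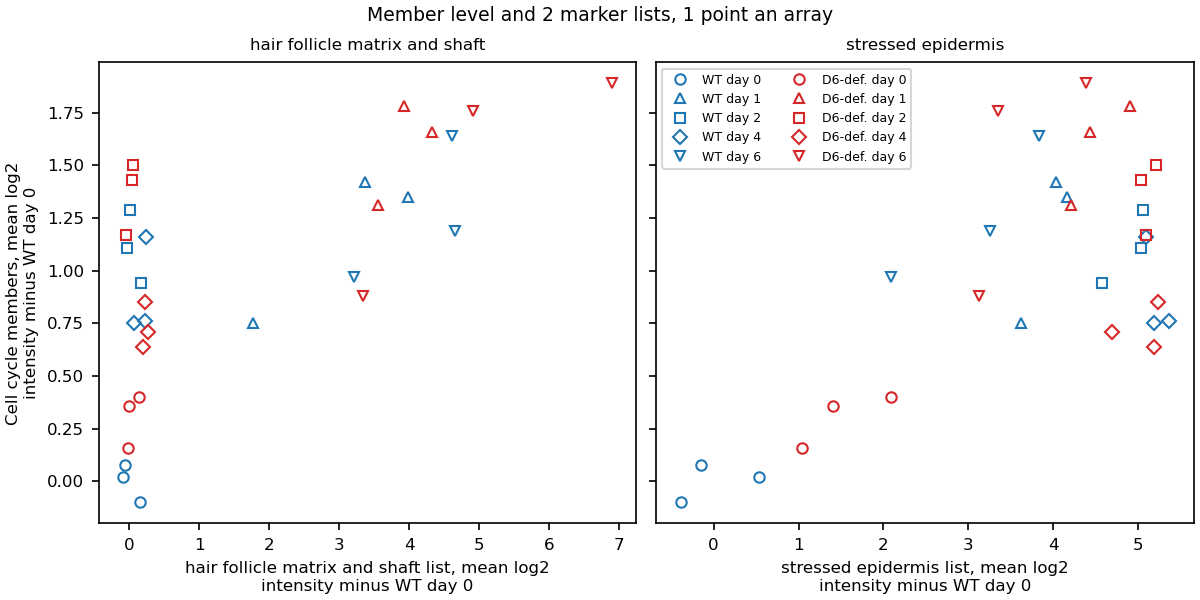
Mean log2 intensity of the 106 member probe sets (y axis) against that of the hair follicle matrix and shaft list (left) and the stressed epidermis list (right), both as differences from the mean of the WT day 0 arrays. Each point is an array, blue for WT and red for D6-deficient skin, with a symbol for each day. At days 2 and 4 the hair list lies near 0 while the members lie between 0.64 and 1.50.

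The stressed epidermis list, all 8 genes tested, was between 3.62 and 5.37 at days 1, 2 and 4 in both genotypes and between 2.09 and 4.39 at day 6. Its level at day 4 was thus high, 4.69 to 5.37 over both genotypes. The mitotic members then stood at 0.30 to 0.60 in D6-deficient and at 0.55 to 1.18 in WT skin. The suprabasal list (Krt1, Krt10, Lor, Flg and Ivl), which marks differentiating keratinocytes, stood at day 4 between -4.12 and -2.41 in D6-deficient and between -2.46 and -0.66 in WT skin. The basal list, the compartment in which epidermal cells divide, stood at -0.34 to -0.08 at day 4 in D6-deficient skin and at 0.39 to 0.64 at day 2. The neutrophil list stood at 3.83 to 4.50 at day 4 in D6-deficient and 3.11 to 4.10 in WT skin. At day 2 the neutrophil list stood at 3.27 to 4.45 in D6-deficient and at 1.49 to 2.32 in WT skin. The part of these shifts in the member changes was not tested.

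The genes outside all the lists that tracked the members best over the 10 group means were H2afx, a histone variant of the DNA damage response, Ube2t, a ubiquitin-conjugating enzyme, 2810417H13Rik, Dscc1, which helps to load the replication clamp, and Zwilch, a kinetochore protein. Their Pearson correlations with the member mean were 0.985 to 0.989 over 10 groups, the highest of 17514 genes, and are given as a description because all points share the same arrays.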

How the data were processed

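Total RNA from whole back skin was measured on 30 Affymetrix Mouse430_2 arrays. The authors normalized the scans by RMA, and the deposited table holds linear intensities for each array and probe set. A sample sheet deposited with it was used only to check the column of WT day 6 replicate 3, whose name lacks a letter of the sample's title. Here log2 was taken, control probe sets (64) were left out, and 36029 of 45037 probe sets were tested after the lowest 20% by mean (9008) were left out. limma 3.58.1 in R 4.3.3 fitted 1 mean for each genotype and day over all arrays, with Benjamini-Hochberg adjustment over all 36029. Called probe sets had an adjusted p under 0.05, with or without a change over 3-fold. Scripts were tested on simulated data. Python 3.11.15 and matplotlib 3.10.9 were used for summaries and plots.

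The members and lists were chosen with earlier results of these data known. Genes named by rule were 10 standard markers, all given array by array, and the largest and smallest change in each role. They also included those called or with the smallest p between genotypes, and those against the common direction. From each pathway list came the 2 largest changes each way past the test. Of the genes beyond the markers only some were given by array, and Ccnb2 was added for its deep fall. For a gene with several probe sets the brightest was quoted. Marker lists are means over tested probe sets relative to WT day 0. Alternatives were other filters, scalings, models, technical sets, the methods' t-test and leaving out each array. The number of arrays limits the precision. Promoters came from a RefSeq table. Genome coordinates are those of that table, since array tables carry none. Same-numbered arrays of different groups correlated above 0.1 in 31 of 135 pairs, so the numbers were not taken to pair samples.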

Additional observations from a re-analysis of the deposited data

How the results depend on the processing

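The counts of member probe sets past both thresholds depended on the fold threshold, the test and single arrays. Without the fold threshold, on the adjusted p alone, higher counts after TPA in WT skin were 79, 78, 74 and 84 at days 1, 2, 4 and 6, in D6-deficient skin 90, 80, 31 and 89. Between days the counts were then 3 lower (WT, day 2 to 4), 12 higher (WT, day 4 to 6), 47 lower (D6-deficient, day 2 to 4) and 57 higher (D6-deficient, day 4 to 6), and 1 between the genotypes at day 2. By the methods' t-test after adjustment, 7 remained past both thresholds at day 1 in WT skin. It gave 0 at day 6 in WT and D6-deficient skin and 0 for both steps of D6-deficient skin. Leaving out 1 array gave 19 to 54 at day 1 in WT skin, 22 to 35 at day 2, 6 to 12 at day 4 and 26 to 49 at day 6. In D6-deficient skin it gave 29 to 50, 14 to 32, 0 to 3 and 13 to 57. For the steps it gave 3 to 18 lower and 4 to 39 higher in D6-deficient skin, and 0 to 2 higher in WT skin between days 4 and 6. With replicate number as a replicate block the counts at days 1, 2, 4 and 6 were 34, 29, 8 and 42 in WT and 35, 24, 2 and 32 in D6-deficient skin, the same as without it. The change of Mcm5 between days 2 and 4 in D6-deficient skin turned to 0.07 without day 2 replicate 3 and to 0.06 without day 4 replicate 2, within a range of -0.21 to 0.07 over single arrays left out. Of 381 recomputed counts 345 stayed within 1.5 times. By brightest probe set the member median from day 2 to day 4 in D6-deficient skin was -1.08, and with no filter on low values -0.33. Of 528 recomputed values of named genes 490 kept their direction and side of the threshold. The cause of the shifts was not tested. Dim probe sets limit what these arrays resolve.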

Other observations

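Other cell types of the skin sample were followed by markers over the same arrays, as mean log2 levels relative to WT day 0. Skeletal muscle markers, all 8 genes tested, stood at -2.69 to -2.08 at day 1 and -1.88 to -1.02 at day 4 in D6-deficient skin. At day 4 in WT skin they stood at -1.18 to -0.84. Sebaceous gland markers, 4 of 5 genes tested, stood at -2.60 to -1.62 at day 4 in D6-deficient and at -2.60 to -1.11 in WT skin, overlapping between the genotypes. Fibroblast markers stayed between -0.51 and 0.39 on all 30 arrays. Macrophage markers were at 0.27 to 0.34 at day 2 and at -0.27 to -0.13 at day 4 in D6-deficient skin. T cell markers were at 0.57 to 0.76 at day 2 and at -0.01 to 0.63 at day 4. Adipocyte markers ranged from -1.05 to 0.72 over all arrays. The part of these cells in the member levels was not tested.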
